A study of Homo sapiens with 6 samples.

Results

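The transcripts described here are those that the array's platform table leaves without a gene and that were nevertheless bright in TPC-1 cells. They were chosen as the probe sets whose id starts with TC, that the platform table does not list, and whose mean log2 value over the 6 arrays was at least 8. This rule took 5193 clusters of 134748 with such an id and of 138745 probe sets in all. It used only the mean level, so the levels below are a description, and the difference between the groups was not part of the choice. A cluster with a mean near 8 could still enter through the group where it was high.

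TPC-1 is an established line from a papillary carcinoma of the human thyroid. The tested cells received 25 pmol of an siRNA against SMAD3 and their controls the same amount of a control siRNA, in each case with 4.5 ul of a lipid reagent. Each group had 3 arrays, RNA was taken after 24 h, and no genotype, added ligand or other agent is named for either group. The experiment was done on 3 separate occasions, and nothing states that the replicates came from separate thaws or clones, so the p-values measure the spread between these 6 samples of 1 cell line.

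A transcript cluster on this kind of array is a set of probes assigned to 1 strand of 1 locus and summarised as a single value. Clusters without a gene name commonly stand for non-coding or predicted transcripts, for unspliced or extended RNA of known genes, or for copies of duplicated and repeated sequence. Much of the genome is transcribed at some level, and long non-coding RNAs are among the better known products of such loci. SMAD3 is the transcription factor that carries TGF-beta and activin signals from the receptors into the nucleus. Probe sets differ in how brightly they bind, so a level below is a brightness and does not rank RNA amounts between clusters.

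The labelled identity and the knockdown were checked first. SMAD3 was at 10.58, 10.03 and 10.27 on the si-SMAD3 arrays, against 14.20, 14.21 and 14.67 on the si-Control arrays. It fell by 4.06 on the log2 scale (SE 0.23, adjusted p = 0.0095 by limma over 66139 clusters), and with the replicate number as a block the adjusted p was 0.18. Without any 1 array it was 0.058 to 0.16. Of the thyroid markers, PAX8 averaged 13.63 and FOXE1 6.98, while TG, SLC5A5, TSHR and NKX2-1 lay between 3.09 and 3.77, below the filter of 3.93. Of 6 epithelial markers, the keratins KRT8 (15.03), KRT18 (13.62), KRT7 (7.87) and KRT19 (5.07) were above the filter, and EPCAM (3.47) and CDH1 (3.11) were below it. The endothelial and immune markers lay between 3.05 and 4.22. The 5 fibroblast markers were LUM at 8.98, COL1A1 at 8.51, COL1A2 at 6.59, DCN at 4.51 and PDGFRB at 3.95. The replicate 2 arrays scored lowest on the first principal component, at -64.3 in si-SMAD3 and -42.3 in si-Control. That axis took up only 24.2% of the total variance. The other 4 arrays were themselves widely spread along it, from 2.3 to 61.2.

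Unnamed clusters were mostly dim, and the well expressed ones were a small share of them. Of 98101 unnamed clusters, 5.29% reached a mean of 8, against 22.48% of 36647 named clusters. Unnamed clusters were still 38.66% of all clusters that bright. Their median over all unnamed clusters was 3.78, against 4.47 for named clusters.

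Within the bright range the unnamed clusters gathered at both ends. The 5193 unnamed clusters had a median of 9.99 with quartiles of 8.77 and 12.34, against a median of 10.59 with quartiles of 9.18 and 12.48 for 8240 named clusters with a mean of at least 8. Between 8 and 10 lay 50.28% of the unnamed clusters and 40.11% of the named ones. From 12 to 14 the order turned, with 10.71% of the unnamed and 17.97% of the named clusters. At 16 and above lay 518 unnamed clusters (9.97%), against 397 named clusters (4.82%). The deposited values have a ceiling of 19.93, at which 41 unnamed clusters (0.79%) and 18 named clusters (0.22%) lay on all 6 arrays. A difference cannot be seen at that ceiling.

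**Figure D1:**
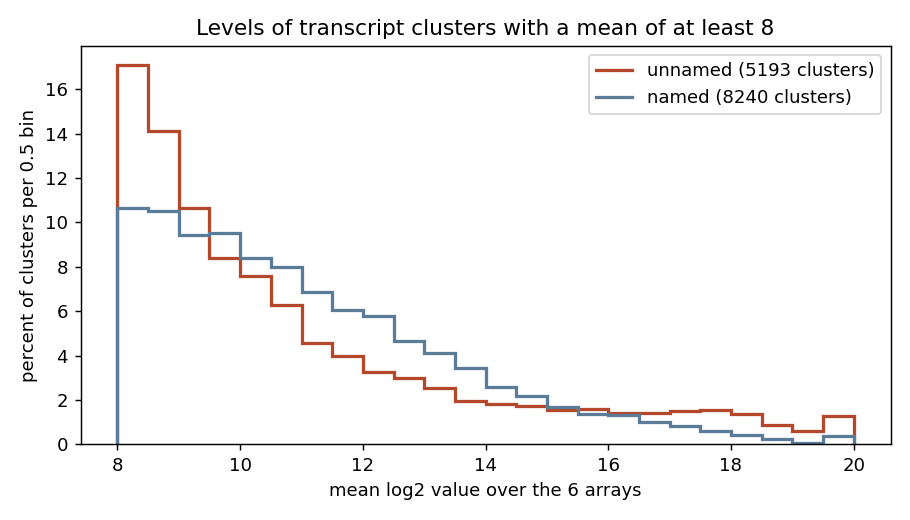
Share of clusters (percent, vertical axis) in each bin of 0.5 of the mean log2 value over the 6 arrays (horizontal axis), for 5193 unnamed and 8240 named clusters with a mean of at least 8. The unnamed clusters are the larger share at the low end and again from 16 upwards, where they make up 9.97% against 4.82%.

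The values of the brightest clusters below the ceiling lay close to it. TC1100007925.hg.1 was at 19.92, 19.92 and 19.92 on the si-SMAD3 arrays and at 19.92, 19.92 and 19.92 on the si-Control arrays. TC1900008878.hg.1 was at 19.86 on all 6 arrays. TC2000007515.hg.1 was at 19.86, 19.90 and 19.83 on the si-SMAD3 arrays, against 19.89, 19.89 and 19.89 on the si-Control arrays. Their groups were equal or overlapped. TC1100010361.hg.1 (mean 19.84), TC1200008640.hg.1 (19.83), TC0100013083.hg.1 (19.77), TC0800010738.hg.1 (19.67) and TC1600010357.hg.1 (19.65) followed. TC0300011828.hg.1 and TC0400010235.hg.1 shared their values, at 19.83, 19.66 and 19.80 on the si-SMAD3 arrays, against 19.86, 19.80 and 19.53 on the si-Control arrays.

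Flat profiles were more frequent among the unnamed clusters. All 6 values lay within 0.05 of each other in 50 of 5152 unnamed clusters below the full ceiling (0.97%) and in 7 of 8222 named ones (0.0851%). They lay within 0.2 in 398 unnamed clusters (7.73%) and in 109 named ones (1.33%). These shares were not matched for level, and 9.97% of the unnamed clusters lay at 16 and above, against 4.82% of the named ones. The dimmest cluster within 0.05 had a mean of 8.06 among the unnamed and of 15.3 among the named clusters.

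The spread between replicates shrank with level, and faster for the unnamed clusters. From 8 to 10 the median pooled within-group SD was 0.289 for unnamed and 0.294 for named clusters. From 14 to 16 it was 0.145 for unnamed and 0.199 for named clusters, and from 16 to the ceiling it was 0.075 for unnamed and 0.148 for named clusters. At the other extreme, 3 unnamed and 17 named clusters had an SD of at least 1. The 3 unnamed ones were TC0100009171.hg.1 (1.08), TC0500009592.hg.1 (1.08) and TC1500010759.hg.1 (1.03).

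In each of these 3 clusters the replicate 2 value was the lowest or the highest of its group. TC0100009171.hg.1 was at 8.58, 6.57 and 7.90 on the si-SMAD3 arrays, against 9.02, 7.07 and 9.07 on the si-Control arrays. TC1500010759.hg.1 was at 9.76, 11.36 and 8.96 on the si-SMAD3 arrays, against 10.11, 11.63 and 10.43 on the si-Control arrays. TC0500009592.hg.1 was at 9.76, 9.51 and 10.01 on the si-SMAD3 arrays, against 10.30, 7.38 and 9.44 on the si-Control arrays. Replicate 2 was the lowest of both groups in the first, the highest of both in the second, and the lowest of both in the third.

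**Figure D2:**
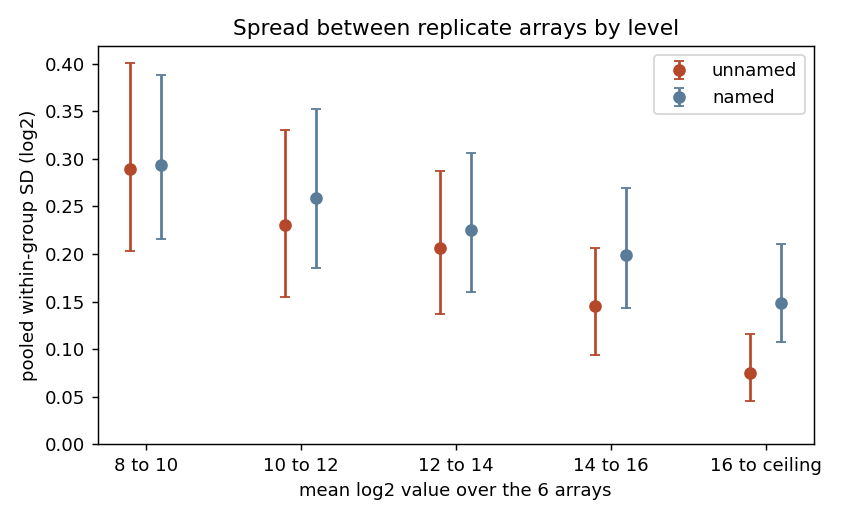
Pooled within-group SD of the log2 values (vertical axis) by mean level (horizontal axis) for unnamed and named clusters that reach the ceiling on no array. Points are medians and bars run from the lower to the upper quartile; the medians are 0.289 and 0.294 at 8 to 10, and 0.075 and 0.148 from 16 to the ceiling, for unnamed and named clusters.

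The ids start with a chromosome, and the share of unnamed clusters that were bright was much alike across chromosomes. Over the 24 chromosomes 1 to 22, X and Y it ran from 4.14% on chromosome 18 to 6.45% on chromosome 21. Chromosome 8 followed at 6.43% with 291 clusters, chromosome 17 at 6.27% with 260, and chromosome X at 6.23% with 206. Chromosome 1 held the most, 504 of its 8566 unnamed clusters. The median level of the bright unnamed clusters ran from 9.50 to 11.69, with the highest on chromosome Y, where 24 of 447 unnamed clusters were bright. On that chromosome the share was 5.37% of unnamed and 2.86% of named clusters, whereas on the other 23 the named share was at least 16.99%. Of the 24 bright unnamed clusters on Y, 3 had the same values as an id on X. A chromosome in an id does not show that the RNA came from that chromosome.

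The mitochondrial genome and the unplaced contigs were the exceptions. All 12 unnamed clusters with a mitochondrial id were bright, as were all 10 named ones. Of 189 unnamed clusters on contigs that are placed on no chromosome, or on a chromosome without a position, 59 were bright (31.22%), against 6 of 40 named ones (15.0%).

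**Figure D3:**
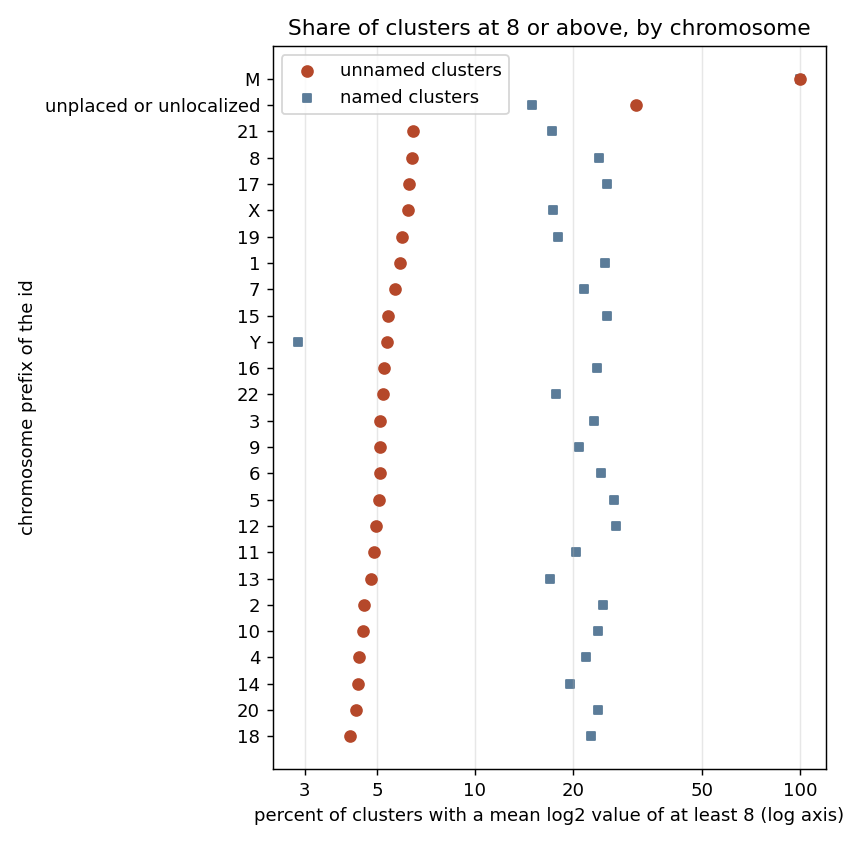
Percent of the unnamed clusters (circles) and of the named clusters (squares) of each chromosome prefix that have a mean log2 value of at least 8, on a log axis. The unnamed share lies between 4.14% and 6.45% on chromosomes 1 to 22, X and Y, at 31.22% for contigs and at 100% for M, where the square is hidden behind the circle.

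Mitochondrial DNA is transcribed from both strands as long precursors that are cut into ribosomal, transfer and messenger RNAs, and it is abundant in most cells. The 12 unnamed mitochondrial clusters had means from 8.24 to 19.84, and 9 of them were at 14 or above. The 10 named ones started at 14.48, and 6 of them lay at the ceiling on all arrays. TC0M00006445.hg.1, the brightest unnamed one, was at 19.93, 19.80 and 19.93 on the si-SMAD3 arrays, against 19.93, 19.54 and 19.93 on the si-Control arrays. TC0M00006438.hg.1 was at 12.20, 12.43 and 12.48 on the si-SMAD3 arrays, against 11.49, 11.64 and 12.72 on the si-Control arrays. TC0M00006436.hg.1, the dimmest, was at 8.02, 8.57 and 8.62 on the si-SMAD3 arrays, against 7.25, 8.39 and 8.59 on the si-Control arrays.

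The control arrays were spread widely in the mitochondrial clusters. The groups overlapped in all 12, 8 differences lay above and 4 below 0, and the smallest unadjusted p was 0.243 by limma. Of the 11 that reached the ceiling on no array, 8 were highest on the si-Control replicate 3 array and 6 were lowest on the si-Control replicate 1 array. TC0M00006447.hg.1 was at 16.49, 16.16 and 16.88 on the si-SMAD3 arrays, against 16.03, 15.98 and 17.28 on the si-Control arrays.

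Some clusters had exactly the same 6 values as another probe set, as happens when their probes are shared. Below the ceiling this held for 135 of the 5193 clusters (2.60%), which fell into 61 groups. Of the unnamed clusters below 8 it held for 0.49%, and of the named clusters of at least 8 for 1.08%. The 5193 clusters therefore carry 5079 distinct profiles, with those at the ceiling on every array taken as 1. The groups were small: 48 held 2 probe sets, 8 held 3, 3 held 4 and 2 held 5. In 35 of them every mapped id lay on the same chromosome and none on a contig, and 6 groups held an id that is not mapped. A contig was part of 12 groups, and 3 joined X and Y, which share the pseudoautosomal regions.

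The largest groups crossed chromosomes. TC0500010267.hg.1 shared its values with ids on chromosomes 10, 15, 17 and 19, at 17.64, 17.74 and 17.70 on the si-SMAD3 arrays, against 17.74, 17.81 and 17.81 on the si-Control arrays. TC2100007512.hg.1 shared its values with 2 further ids of chromosome 21 and 2 of contigs, at 17.64, 17.74 and 17.57 on the si-SMAD3 arrays, against 17.69, 17.57 and 17.66 on the si-Control arrays. The groups overlapped, or met at 17.74, in these families.

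Chromosome 21, an acrocentric chromosome whose short arm is made of repeats that include ribosomal RNA genes, held 22 of the 135 clusters with shared values. The contigs also held 22, from only 59 bright unnamed clusters against 101 on chromosome 21. Chromosomes 7 and X held 13 each. TC2100006465.hg.1, which shared its values with another id of chromosome 21 and 2 contig ids, was at 11.79, 11.70 and 11.65 on the si-SMAD3 arrays, against 11.83, 10.50 and 11.85 on the si-Control arrays. The low si-Control value belonged to replicate 2. On chromosome 7, TC0700007958.hg.1 and TC0700011541.hg.1 each stood for 4 ids, with means of 11.80 and 10.32 and differences of 0.16 and 0.33.

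Only 1 group tied an unnamed cluster to a gene. TC0800011004.hg.1 had the same values as the probe set of REXO1L5P, a pseudogene of the REXO1L family. It was at 9.09, 9.62 and 10.33 on the si-SMAD3 arrays, against 10.09, 10.50 and 10.13 on the si-Control arrays, and the groups overlapped (difference -0.56, unadjusted p = 0.117 by limma). A shared profile does not tell which copy the RNA came from.

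The number in an id follows the order of genes along a chromosome, which gives the clusters neighbours. Of 24974 consecutive pairs of singly named ids, 98.91% had their genes in ascending order in RefSeq's GRCh38.p14, and 99.64% of the 11835 pairs with a known strand lay on the same strand. A neighbour in this order is a place in a list, with no distance given, and it does not name the cluster.

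Bright unnamed clusters tended to sit beside other bright clusters. Of 5134 on chromosomes, 993 (19.34%) had another such cluster directly before or after, against 6.55% of the unnamed clusters below 8. A named cluster of at least 8 was directly adjacent to 17.98% of them, against 10.29% of the dimmer unnamed clusters. The nearest named id had a median level of 6.61 for the bright and 4.80 for the dimmer unnamed clusters, and it reached 8 for 42.06% and 29.48% of them. In all 405 runs of at least 2 consecutive ids formed, of which 17 held at least 5, with 110 clusters between them.

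The longest runs held 9 clusters, 1 of them on chromosome 8 between TRPS1, which encodes a GATA-type zinc finger repressor, and LINC00536. Its clusters, from TC0800011540.hg.1 to TC0800011548.hg.1, had means from 8.08 to 13.58, while TRPS1 was at 10.09 and LINC00536 at 4.25. The brightest, TC0800011546.hg.1, was at 13.77, 14.01 and 13.47 on the si-SMAD3 arrays, against 13.33, 13.93 and 12.98 on the si-Control arrays. All 9 differences lay above 0, between 0.09 and 0.59 with a median of 0.42, and the smallest unadjusted p was 0.098 by limma. The groups overlapped in TC0800011546.hg.1, and each replicate number alone gave a higher si-SMAD3 value there. TRPS1 itself differed by 0.08. Neighbouring clusters may be parts of 1 transcript, so their 9 values are not independent.

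Further runs lay beside well known genes. A pair of stretches of 8 and 6 clusters, starting at TC0800011580.hg.1 and at TC0800011589.hg.1, lay between EXT1, which encodes a glycosyltransferase of heparan sulfate synthesis (16.33), and SAMD12 (3.86), with median levels of 10.29 and 11.86 and median differences of -0.18 and -0.08. The 6 clusters from TC1200008042.hg.1 directly followed HMGA2, which encodes an architectural chromatin protein (9.86), and had a median of 13.03 and a median difference of -0.04. On X, 9 clusters from TC0X00010574.hg.1 directly followed DANT2 (4.06), and 7 of them shared values with another probe set; their median level was 9.83 and their median difference -0.27. The 7 clusters from TC2100007511.hg.1 were all between 17.64 and 18.01 and differed by 0.01 to 0.03.

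In a run on chromosome 7 all differences lay below 0. The 5 clusters from TC0700012614.hg.1, between KLF14 (3.65) and MKLN1-AS (8.39), differed by -0.75 to -0.23. Their medians were 9.20, 8.03 and 9.36 on the si-SMAD3 arrays, against 9.38, 8.67 and 9.52 on the si-Control arrays, so that the groups overlapped. On chromosome 6, 5 clusters from TC0600008490.hg.1 after OGFRL1 (14.96, difference -0.55) had a median difference of -0.32. That run held the smallest unadjusted p of all 17 runs, 0.0229 by limma.

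The 3 bright unnamed clusters that most closely followed SMAD3 in the order of ids differed by far less than SMAD3. TC1500007634.hg.1, the next id, was at 8.65, 8.78 and 9.21 on the si-SMAD3 arrays, against 9.14, 8.26 and 8.02 on the si-Control arrays. Its difference was 0.41. TC1500007635.hg.1 differed by 0.14 and TC1500007637.hg.1 by -0.10, against the -4.06 of SMAD3. The groups overlapped in all 3 clusters, with unadjusted p from 0.236 to 0.692 by limma.

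No bright unnamed cluster passed the adjusted threshold between the groups. All 5193 were above the filter and tested with limma's moderated test over 66139 clusters, of which 1 passed (0.00151%), SMAD3 itself. At an unadjusted p under 0.05 there were 201 of the 5193 (3.87%), against 5.39% of all clusters tested and 4.85% of the bright named clusters. Of these 114 were higher on the si-SMAD3 arrays (2.20%, against 2.74% of all clusters) and 87 were lower (1.68%, against 2.65%). An intensity trend with robust variance and an unmoderated statistic also called 0, with 250 and 259 at an unadjusted p under 0.05. The share of all clusters was not taken under these fits, so the 3.87% against 5.39% holds for the main fit. Below 0.001 lay 3 of the 5193 (0.0578%, against 0.0922% of all clusters tested). Of these, TC0800011807.hg.1 and TC0800011808.hg.1 had identical values and count as 1 measurement.

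In the main fit the share of small p-values fell with the level. From 8 to 10 it was 5.55% of unnamed and 5.36% of named clusters. From 12 to 14 it was 2.52% of unnamed and 4.79% of named clusters, and at 16 or above 0.193% of unnamed and 1.51% of named clusters. The fit drew every SD towards 1 common value without regard to level. TC1100007925.hg.1, with an SD of 0.0, still had an SE of 0.16. Clusters with a small spread at high level could therefore hardly reach a small p, so these shares do not compare levels evenly. Without overlap were 5.41% of unnamed and 9.57% of named clusters at 16 or above, against 10.3% of all clusters tested. At an unadjusted p under 0.05 the bright unnamed clusters had 7 higher and 7 lower from 12 to 14, against 12 and 59 among named clusters. From 8 to 10 the counts were 80 higher and 65 lower, against 68 and 109. The share of all clusters was not taken by level. The split of the unnamed clusters over all levels, 114 higher and 87 lower, depends on the settings. It was 95 and 93 with each array centred on its own median, and 95 and 96 with the replicate block.

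The groups did not overlap in 505 clusters (9.72%), a share near the 10.3% of all clusters tested. In 312 the si-SMAD3 arrays were all higher (6.01%, against 5.47% of all) and in 193 all lower (3.72%, against 4.85% of all). This split depends on the scaling: with each array centred on its own median it was 277 higher (5.33%, against 4.94% of all) and 326 lower (6.28%, against 5.53% of all). The difference had the same sign in all 3 replicate numbers in 784 higher (15.1%, against 13.7% of all) and 564 lower clusters (10.9%, against 12.4%).

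The differences were small and centred near 0. Their median was 0.02 on the log2 scale, with quartiles of -0.10 and 0.16, against a median of 0.01 over all clusters tested; 2837 lay above 0 and 2304 below (54.6% above, against 51.8% of all). With quantile normalization repeated, 2898 lay above 0 and 2254 below (55.8% above, against 50.6% of all). With each array centred on its own median, 2640 lay above 0 and 2553 below (50.8% above, against 49.4% of all). The median size was 0.128, against 0.154 for bright named and 0.182 for all clusters tested. Differences of at least 0.5 in size were found in 305 clusters (5.87%, against 10% of all), 169 of them higher (3.25%, against 5.14% of all) and 136 lower (2.62%, against 4.85% of all), and of at least 1 in 16 (0.308%, against 0.575%). By chromosome the median difference ran from -0.007 on Y to 0.042 on chromosome 2, and was 0.073 for contigs and 0.085 for M.

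**Figure D4:**
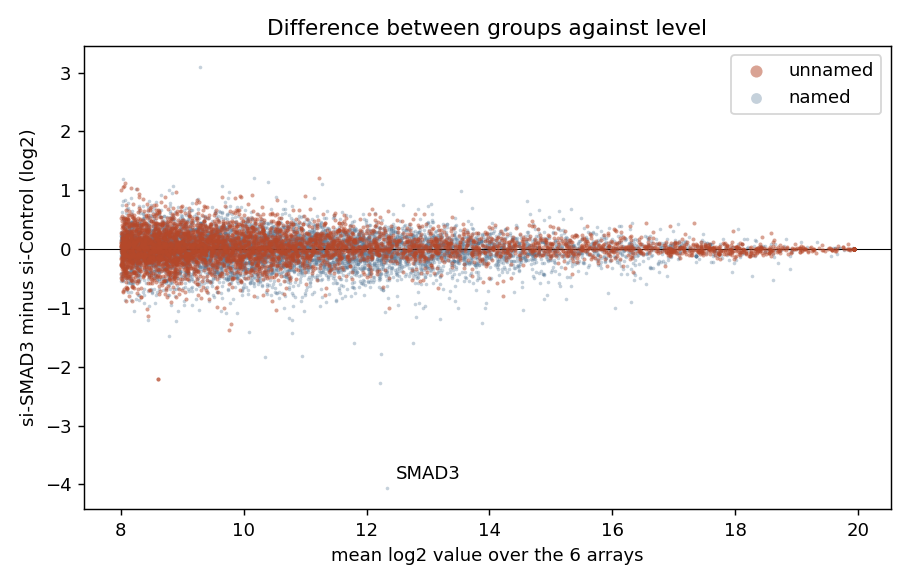
Difference of si-SMAD3 minus si-Control (log2, vertical axis) against the mean log2 value over the 6 arrays (horizontal axis), 1 point for each of the 5193 unnamed and 8240 named clusters with a mean of at least 8. The points narrow towards the ceiling; the lowest unnamed point, at -2.21, is a pair with identical values, and SMAD3 lies at -4.06.

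The lowest difference belonged to TC0800011807.hg.1 and its next id TC0800011808.hg.1, which had identical values and count as 1 measurement. They were at 7.68, 7.59 and 7.21 on the si-SMAD3 arrays, against 10.34, 9.40 and 9.37 on the si-Control arrays, so the groups lay well apart. All si-SMAD3 values lay below 8, so this pair passed the limit only through the si-Control arrays. The means were 7.49 ± 0.25 with si-SMAD3 and 9.70 ± 0.55 with si-Control (SD, n = 3). The difference was -2.21 (SE 0.30, 95% interval -2.90 to -1.52), a 4.63-fold lower level on the scale of the deposited values. Its unadjusted p of 9.01e-05 was the smallest of the 5193, and its adjusted p was 0.745 by limma. Within the 3 replicate numbers it was -2.66, -1.81 and -2.16. The nearest named ids, the microRNA gene MIR3686 (3.36) and the gasdermin gene GSDMC (3.86), lay below the filter, with differences of 0.04 and 0.34.

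TC2000008315.hg.1 had the next smallest p of the lower clusters. It was at 11.91, 11.63 and 12.04 on the si-SMAD3 arrays, against 12.83, 12.83 and 12.94 on the si-Control arrays. The difference was -1.01 (SE 0.19, unadjusted p = 0.000723 and adjusted p = 0.923 by limma). The id directly after it belonged to LRRN4, which encodes a leucine-rich repeat membrane protein; LRRN4 was at 10.21 and differed by -0.81 (unadjusted p = 0.0298), and MCM8-AS1 before it differed by -0.14.

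TC0400008943.hg.1 was at 9.08, 8.71 and 9.69 on the si-SMAD3 arrays, against 10.44, 10.18 and 10.68 on the si-Control arrays (difference -1.28, unadjusted p = 0.00208). TC0300013154.hg.1 was at 9.29, 8.49 and 9.40 on the si-SMAD3 arrays, against 10.81, 9.85 and 10.67 on the si-Control arrays (difference -1.38, unadjusted p = 0.0038). In both the replicate 2 value was the lowest of its group. NCEH1, which encodes a hydrolase of cholesterol esters and is the named id before TC0300013154.hg.1, was at 13.16 and differed by 0.04. TMEM184C, after TC0400008943.hg.1, was at 13.24 and differed by 0.10.

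A pair of lower clusters lay 11 ids apart on chromosome 12. TC1200008131.hg.1 was at 8.56, 8.35 and 8.58 on the si-SMAD3 arrays, against 9.33, 9.01 and 9.58 on the si-Control arrays. TC1200008142.hg.1 was at 9.69, 9.68 and 9.93 on the si-SMAD3 arrays, against 10.82, 10.29 and 10.58 on the si-Control arrays. The differences were -0.81 and -0.80. Of the named ids around them, CPSF6, which encodes a subunit of the pre-mRNA cleavage factor, differed by 0.16 and the chromatin reader gene YEATS4 by 0.22. LYZ, the lysozyme gene, was below the filter.

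The other lower clusters chosen by the smallest p were TC1800006740.hg.1 (-0.80), TC0200008129.hg.1 (-0.73), TC1600009124.hg.1 (-0.88) and TC0700009021.hg.1 (-0.70). The si-SMAD3 values of TC1800006740.hg.1, 7.99, 7.51 and 7.70, all lay below 8, so it passed the limit only through the si-Control arrays. TC1800006740.hg.1 lay between PSMG2, a proteasome assembly chaperone gene (difference -0.31), and SEH1L, a nucleoporin gene (-0.43), both bright at 12.99 and 12.05.

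Among the higher clusters TC0400009437.hg.1 had the smallest p. It was at 8.42, 8.91 and 8.42 on the si-SMAD3 arrays, against 7.40, 7.75 and 7.39 on the si-Control arrays. All si-Control values lay below 8, so TC0400009437.hg.1 passed the limit only through the si-SMAD3 arrays. The difference was 1.07 (SE 0.22, 95% interval 0.56 to 1.58), with an unadjusted p of 0.00135 and an adjusted p of 0.923 by limma. The named id before it, MIR1305, was dim at 4.59 and differed by 1.04 (unadjusted p = 0.0284), and the Hippo pathway gene WWC2 after it differed by 0.35.

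TC1100013087.hg.1 was at 11.35, 11.52 and 11.46 on the si-SMAD3 arrays, against 10.33, 10.91 and 10.38 on the si-Control arrays, a difference of 0.91. Its next named id was BIRC2, which encodes the inhibitor of apoptosis cIAP1, at 11.02 with a difference of -0.30. TC2200009154.hg.1 was at 8.48, 8.78 and 9.02 on the si-SMAD3 arrays, against 7.72, 7.63 and 8.11 on the si-Control arrays, a difference of 0.94. In both clusters every si-SMAD3 value lay above every si-Control value. The si-Control mean of TC2200009154.hg.1 was 7.82, so it passed the limit of 8 only through the si-SMAD3 arrays.

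TC1_KI270706v1_random00006435.hg.1, on a contig of chromosome 1 without a position, was at 9.12, 8.59 and 8.33 on the si-SMAD3 arrays, against 7.92, 7.41 and 7.60 on the si-Control arrays, a difference of 1.04. TC1100012111.hg.1 was at 8.27, 8.88 and 8.36 on the si-SMAD3 arrays, against 7.13, 7.83 and 7.55 on the si-Control arrays. In both, the si-SMAD3 values lay above 8 and the si-Control values below it. TC1100007692.hg.1 (0.74), TC0200009075.hg.1 (0.71), TC1600010197.hg.1 (0.81), TC2100007505.hg.1 (0.88) and TC0800008919.hg.1 (0.88) completed the 10. TC0200009075.hg.1 directly followed PTPN4, a tyrosine phosphatase gene, which differed by 0.31.

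**Figure D5:**
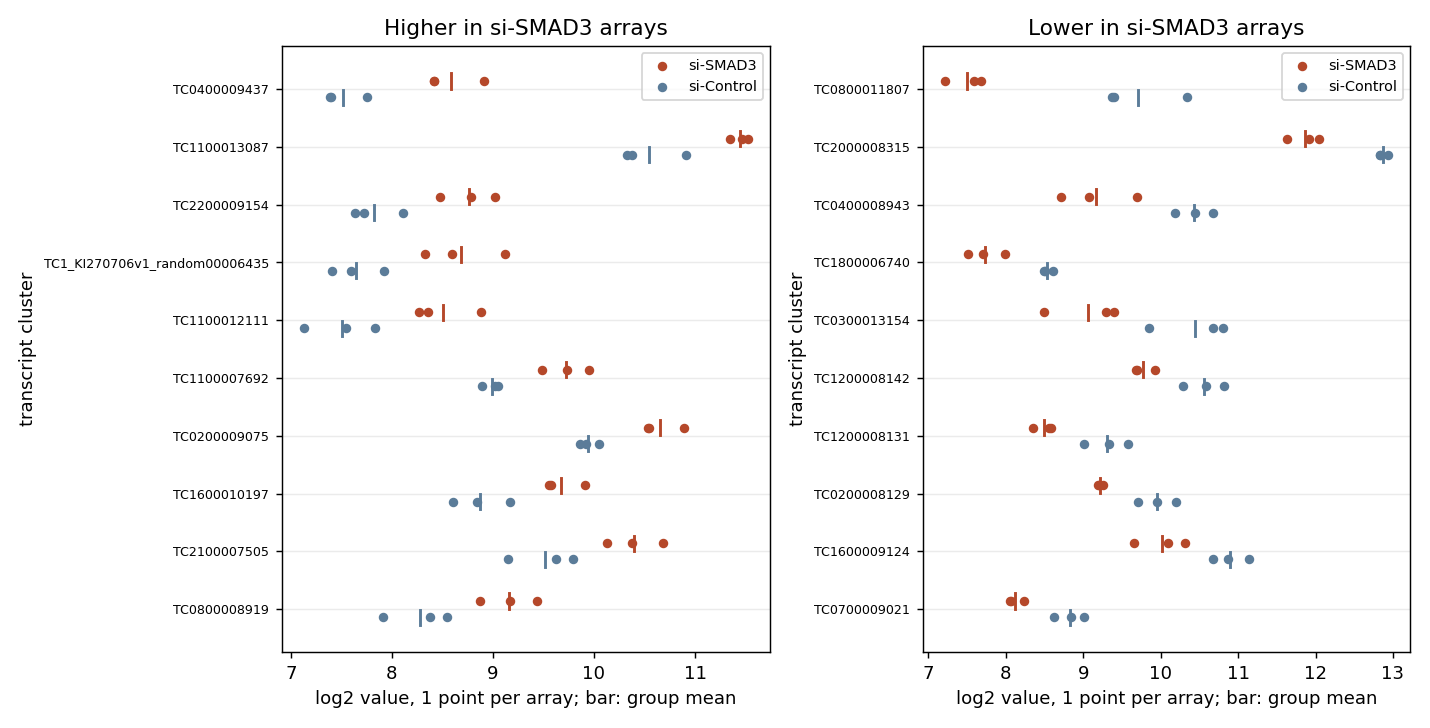
Log2 values (horizontal axis) of the 10 higher and the 10 lower unnamed clusters with the smallest unadjusted p, 1 point per array, with si-SMAD3 above si-Control in each row and bars at the group means. The groups do not overlap in any of the 20, which were chosen by their p, and the adjusted p runs from 0.745 to 0.923.

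The largest increase, 1.21, was found in TC1700011558.hg.1, which is outside the choice by p and was picked after its values were seen. It was at 11.81, 12.80 and 10.85 on the si-SMAD3 arrays, against 10.77, 10.71 and 10.37 on the si-Control arrays, and its unadjusted p was 0.0279 by limma. All 3 si-SMAD3 values lay above the si-Control values, by little in replicate 3. It lay between C17orf58 and WIPI1 in the order of ids. Of the 16 clusters with a difference of at least 1 in size, 13 had a mean below 10.

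Over all bright unnamed clusters, a difference was hardly shared with the nearest named id. Over 3683 clusters whose nearest named id was tested, the 2 differences had the same sign in 51.26%, and their correlation across clusters was 0.097; both come from the same 6 arrays, and clusters are not replicates. Where the 2 ids were directly adjacent, in 1261 clusters, the values were 52.34% and 0.124.

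The arrays did not contribute evenly to the extremes. Of 5147 clusters free of the ceiling, 995 (19.33%) were highest on the si-SMAD3 replicate 2 array and 1067 (20.73%) on the si-Control replicate 2 array, against 18.38% and 16.87% of all clusters tested. The si-Control replicate 3 array had the lowest value in 1185 (23.02%, against 17.13% of all) and the si-Control replicate 1 array in 1095 (21.27%, against 19.03%). Both replicate 2 arrays lay above the other 4 in 507 clusters (9.76%, against 7.78% of all) and below them in 326 (6.28%, against 7.74%). Without any 1 array, no bright unnamed cluster passed the adjusted threshold either.

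At the limit of the rule the choice is arbitrary. The clusters just inside were TC0900009571.hg.1, TC1700012436.hg.1, TC2100007034.hg.1, TC0200008838.hg.1 and TC0500006615.hg.1, with means from 8.0001 to 8.0016. Just outside, with means from 7.9985 to 7.9958, lay TC0200013464.hg.1, TC1600008501.hg.1, TC1500007059.hg.1, TC0100009448.hg.1 and TC0500011071.hg.1. Single arrays of TC0900009571.hg.1 ran from 7.17 to 8.64, so membership there rests on the spread between arrays.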

How the data were processed

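Each array has a single log2 value per probe set in the deposited table. RMA and Affymetrix Expression Console are the tools listed by the submitters' processing notes, and no build is given. The same highest value, 19.93, is found on every array, and whether a step followed RMA is not stated, so levels and folds hold on the scale of the deposited values. RMA equalizes the arrays, so an overall change in RNA cannot be seen, and the number of arrays limits the precision. Sample titles gave the group and the replicate number. Listed probe sets are those of the platform's gene table, and 35528 clusters have a single symbol, updated through the Entrez ID to RefSeq's GRCh38.p14.

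Clusters with an id starting TC and a mean at or above 3.93, the median of all probe sets, were tested with the moderated statistic of limma 3.58.1 under R 4.3.3 (2-sided, Benjamini-Hochberg over 66139 clusters, threshold 0.05). An exact permutation test of 3 arrays against 3 cannot go below 0.1. Clusters named in the text are the 10 brightest below the ceiling, the 10 higher and 10 lower with the smallest p, those nearest to 8, the 3 with the largest and the 3 with the smallest spread, the 5 largest groups of identical values, those identical to a named probe set, and the named ids next to them. The runs of ids, the clusters near SMAD3 and the mitochondrial clusters were added after values were seen. The clusters, lists and tests were chosen with earlier results of these data known. The main fit was not paired, so the p-values, SEs and intervals above are unpaired unless the block is named. The replicate number entered as a block in an alternative, since the design text ties the replicates to separate time points. Deviations of same-numbered arrays correlated at 0.07, 0.08 and 0.01, and arrays of different numbers between -0.08 and 0.02. The procedure was tested on simulated data. Alternatives changed the filter, statistic, scaling, block, arrays, membership limit, identical values and ceiling.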

Additional observations from a re-analysis of the deposited data

How the results depend on the processing

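The count of 0 bright unnamed clusters past the adjusted threshold held under every alternative run. The differences of the 20 clusters chosen by p kept their direction and their side of the threshold in all 300 values recomputed under the alternatives. The smallest adjusted p was 0.24 by limma. The kept direction carries no weight. The groups of these 20 did not overlap, so leaving out 1 array could not reverse a difference. The changes of filter, statistic, block, identical values and ceiling left each difference as it was. The count at an unadjusted p under 0.05 was 201, and 305 when only clusters of at least 8 were fitted. It was 351 of 7998 with membership at a mean of at least 7 and 110 of 3571 at 9. Without 1 array it was 157 to 255. The 505 clusters without overlap became 784 with membership at 7, and 907 to 1189 without 1 array, where fewer arrays make separation easier. The share over all clusters was not taken for the counts in this section, so they have no background beside them. The median difference stayed between 0.0035 and 0.0385, within the spread of the 3 replicate numbers (SD 0.0287). The SMAD3 difference of -4.06 was not past the threshold with the replicate block (-4.06, adjusted p = 0.18) or with an unmoderated statistic (-4.06, adjusted p = 0.85), and it ran from -4.21 to -3.91 without 1 array (adjusted p from 0.058 to 0.16), where fewer residual degrees of freedom remain. With the replicate block, 191 bright unnamed clusters were at an unadjusted p under 0.05, and the block changed no other call. At least 1 array lay at the ceiling in 46 clusters, which limits what can be seen for them. Some clusters just below it were flat too, such as TC1100007925.hg.1 at 19.92 and TC1900008878.hg.1 at 19.86 on all 6 arrays. Whether the limit extends to such clusters was not tested.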
